A study of Mus musculus with 2 samples.

Results

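The interferon regulatory factors (IRFs) are transcription factors that switch on interferon genes and the antiviral and immune genes that interferons induce. Described here are 8 of them, Irf1, Irf2, Irf3, Irf4, Irf5, Irf7, Irf8 and Irf9, chosen by gene symbol. They were covered by 16 of the 56594 probes used, 2 probes each, and 7 of the 8 were measured on both arrays, out of 16354 such genes. The cells were a mouse glioblastoma stem cell line, grown as neurospheres from tumours induced with an SB transposon and kept in serum-free medium with EGF and bFGF. The Stat5b-knockdown cells carried a lentiviral short hairpin RNA against Stat5b and the control cells a non-target hairpin, both as stable lines. The 2 groups thus shared the line, the medium and the lentiviral transduction, and each was measured on 1 single-colour Agilent array. Both came from 1 line. Whether the transduced cells were clones or pools is not given in the sources used here. There were no replicates, so each value below describes these 2 arrays and none could be set against the spread between cultures.

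IRF proteins share a DNA-binding domain that recognises GAAA repeats, the core of the interferon-stimulated response element (ISRE). Interferons act through receptors and JAK kinases on STAT proteins. Type I interferon forms the complex ISGF3 from STAT proteins and IRF9, which binds the ISRE, and interferon gamma forms STAT dimers, which bind the gamma-activated site (GAS). STAT5 dimers bind the same GAS type of sequence. IRF3 and IRF7 are activated by phosphorylation downstream of sensors of viral nucleic acid, IRF1 and IRF7 are themselves made in response to interferon, and IRF4 and IRF8 are best known from lymphoid and myeloid cells.

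Stat5b itself had a processed signal of 498 on the knockdown array against 1991 on the control array at its brighter probe, a log2 difference of -2.0 ± 0.20, or 25.0% of control. Its dimmer probe read 7.49 on the knockdown array, not well above background, against 14.7 on the control array (-0.98 ± 0.66), or 50.9% of control. The ± given with each difference was computed from the scanner software's error, and describes the reading of spots rather than any variation between cultures. For a gene mean it combines the errors of the probes as if independent. It thus shrinks with more probes and leaves out differences between them. In log2 difference, repeated spots of a probe varied with an SD of 0.0576. Separate probes for a gene varied with an SD of 0.31. Over all measured genes the median difference was 0.01. A difference of 1 on the log2 scale, 2-fold, was used as the limit for counting a gene as higher or lower. Of the labelled cell type's 14 listed markers, 9 were measured on both arrays. Of these, 4 were above 0 and 5 below, against 51.2% of all measured genes above 0, with a median of -0.09. The 2-fold limit was reached by 0 of the 9, against 3.67% of all measured genes upward and 2.41% downward. Nes read 15867 on the knockdown array against 18174 on the control array (-0.20 ± 0.20), and Vim 88538 on the knockdown array against 96090 on the control array (-0.12 ± 0.20), while Sox2 and Fabp7 were not well above background on either array. Of the 9, Pax6 and Sox9 differed most. Pax6 averaged 79.7 on the knockdown array against 129.5 on the control array (-0.70 ± 0.15). With normexp background correction, which damps dim signals, Pax6 was at -0.34. Sox9 averaged 1277 on the knockdown array against 964.9 on the control array (0.40 ± 0.14). Egfr (0.12), Msi1 (-0.10), Cd44 (-0.09), Bmi1 (0.04) and Prom1 (0.01) were nearer 0 than Nes, each averaging probes on both sides of 0. Olig2, from a probe in the last 64 rows, was dim with the control and at least 4.4-fold higher with the knockdown. Gfap was dim with the knockdown, and at least 1.53-fold lower there than with the control.

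Among the measured IRFs, Irf1 and Irf7 differed most, both higher on the knockdown array. In the main setting Irf8 and Irf9 followed, and Irf3 was near 0. The places after Irf7 changed with the probes used: with the brightest probe Irf2 was at 0.56, and Irf8 and Irf9 were at 0.27. At the 2-fold limit, 0 of the 7 measured IRFs were higher and 0 lower, against 3.67% of all measured genes that were higher by this limit and 2.41% that were lower. Above 0 were 6 of the 7, against 51.2% of all measured genes. The median of the 7 was 0.27. With the bottom 64 rows of the arrays left out, where large differences were more frequent (7.57% of probes at 2-fold or more, against 5.43% in the other rows), 6 IRFs were measured and 4 of them were above 0, with a median of 0.36. Of the 16 IRF probes 6 lay in those rows: both of Irf4, both of Irf5, and 1 each of Irf1 and Irf2. Whether position on the array had a part in their values was not tested.

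**Figure D1:**
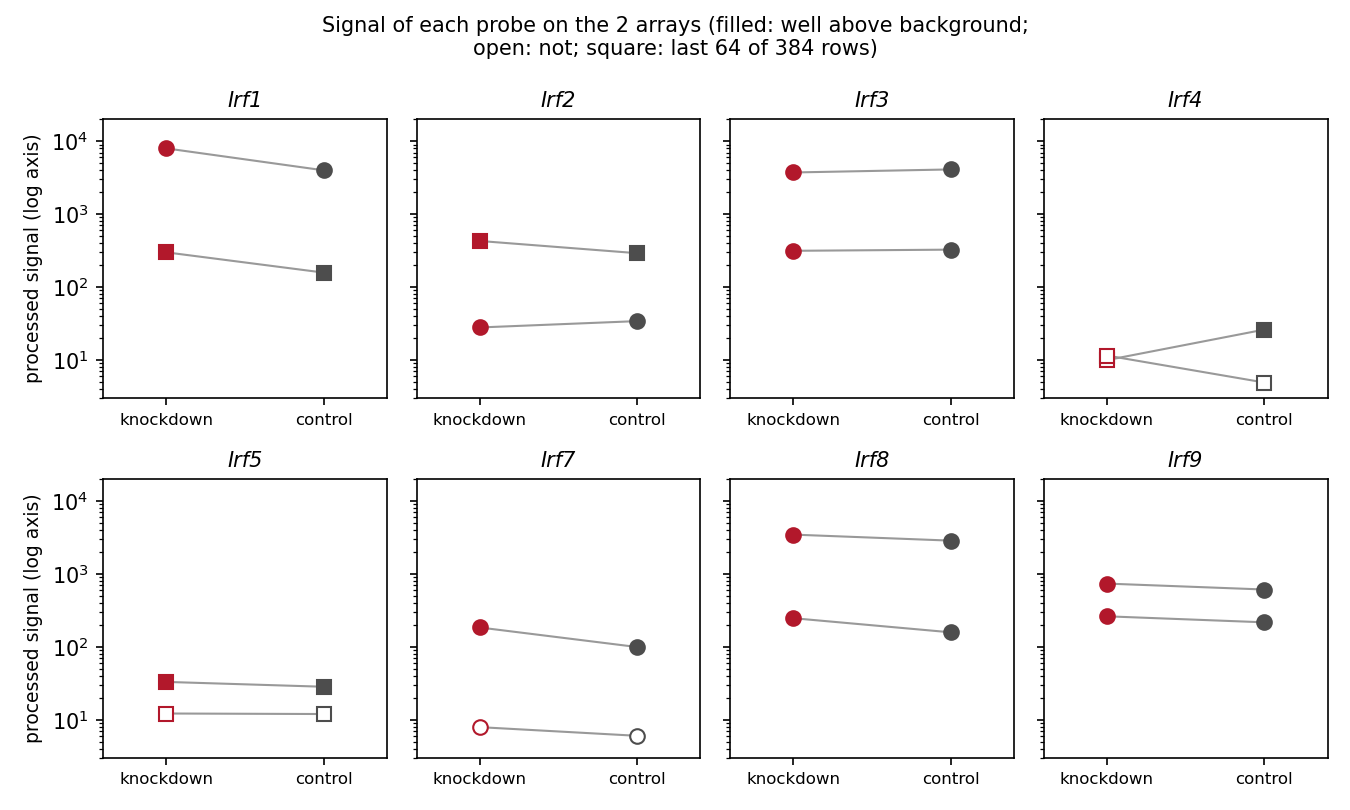
Processed signal (log axis) of both probes of each IRF gene on the knockdown and the control array, 1 array each, with a line joining the same probe. Filled symbols were well above background, open symbols were not, and squares lay in the last 64 rows. Both Irf1 probes and the brighter Irf7 probe sit higher on the knockdown array, both Irf3 probes are nearly level, and the Irf4 probes cross.

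Irf1 is an activator of interferon-gamma-induced genes, including those of antigen presentation. Its brighter probe read 7991 on the knockdown array against 3992 on the control array, a difference of 1.0 ± 0.20, at the 2-fold limit after rounding and just under it before. The dimmer probe read 299.6 on the knockdown array against 158 on the control array (0.92 ± 0.21). Both probes were thus higher on the knockdown array, by nearly the same factor. They were well above background on both arrays. The gene mean was 0.96 ± 0.14, or 1.95-fold, and 4.08% of all measured genes had a difference at least as high. The dimmer probe lay in the next to last row of the array, and the brighter probe in the first.

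The sequence of the dimmer Irf1 probe is shown with those of the Irf7 probes, because these genes differed most and the Irf7 pair gave unlike readings from the same transcript. Each is an oligonucleotide of 60 bases from the authors' table, 5′ to 3′, with no part marked.
Irf1 dimmer probe: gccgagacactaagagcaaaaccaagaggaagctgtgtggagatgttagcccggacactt
Irf7 brighter probe: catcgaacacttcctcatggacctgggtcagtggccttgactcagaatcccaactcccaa
Irf7 dimmer probe: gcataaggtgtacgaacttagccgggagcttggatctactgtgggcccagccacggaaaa

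Irf7 is the interferon-inducible amplifier of the type I interferon genes. Its brighter probe read 184.7 on the knockdown array against 99.5 on the control array, a difference of 0.89 ± 0.21, or 1.85-fold. The other probe, annotated to the same transcript, read 7.93 on the knockdown array against 6.03 on the control array and was not well above background on either. The Irf7 value thus rests on 1 probe, outside the last rows of the array. Of all measured genes 4.93% had a difference at least as high. With normexp the Irf7 difference was 0.56, and with both probes averaged it was 0.64.

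Irf9 is the DNA-binding subunit of ISGF3. Its probes read 738.7 and 262.8 on the knockdown array against 612.4 and 217.3 on the control array. Both gave a difference of 0.27, and the gene mean was 0.27 ± 0.14, or 1.21-fold. The probes did not disagree, and 25.5% of all measured genes were at least as high. Stat2, which partners IRF9 in ISGF3, was at 0.06 ± 0.21. That mean averages probes that went opposite ways, at -0.30 and 0.41.

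Irf3 is the constitutively made factor that, once phosphorylated, starts the first interferon-beta response. Its probes read 3729 and 314.1 on the knockdown array against 4106 and 325.9 on the control array. The differences were -0.14 ± 0.20 and -0.05 ± 0.20, and the gene mean was -0.10 ± 0.14. Irf3 was the only measured IRF with a mean below 0 in the main setting, by less than its scanner error.

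Irf2 is known as an antagonist of IRF1 at shared binding sites. Its probes went opposite ways. The brighter, annotated to the RefSeq transcript, read 428.7 on the knockdown array against 291.3 on the control array (0.56 ± 0.20) and lay in the last 64 rows. The other, annotated to an Ensembl transcript, read 27.9 on the knockdown array against 34.1 on the control array (-0.29 ± 0.26) and lay outside those rows. The gene mean of 0.13 ± 0.17 therefore averages unlike values. A gap as wide as the 0.85 between these probes was found in 5.83% of the 4548 genes with 2 measured probes, whose median gap was 0.159. The sign of the Irf2 value turned with the probe used: 0.56 with the brightest probe and -0.29 without the last 64 rows.

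Irf8 directs the development of macrophages and dendritic cells. Its brighter probe, annotated to the RefSeq transcript, read 3470 on the knockdown array against 2868 on the control array (0.27 ± 0.20). The other, annotated to an Ensembl transcript, read 247.6 on the knockdown array against 158.4 on the control array (0.64 ± 0.21). Both were higher on the knockdown array, with a gene mean of 0.46 ± 0.14, or 1.37-fold, and 15.5% of all measured genes were at least as high. With the brightest probe alone, as with RefSeq probes only, the value was 0.27.

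Irf5 drives inflammatory cytokine genes in myeloid cells. Its brighter probe read 33.1 on the knockdown array against 28.4 on the control array (0.22 ± 0.29), a difference within its scanner error. The other read 12.2 on the knockdown array against 12 on the control array and was not well above background on either. Irf4, a factor of lymphocytes and plasma cells, was not measured on both arrays. Its first probe read 9.94 on the knockdown array, not well above background, against 26.1 on the control array, well above background. This bounds the control level as at least 2.01-fold higher, taking the lowest signal well above background on the knockdown array. Its second probe went the other way, with 11.5 on the knockdown array against 4.90 on the control array, and was not well above background on either. Irf4 thus has no direction that its probes share.

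**Figure D2:**
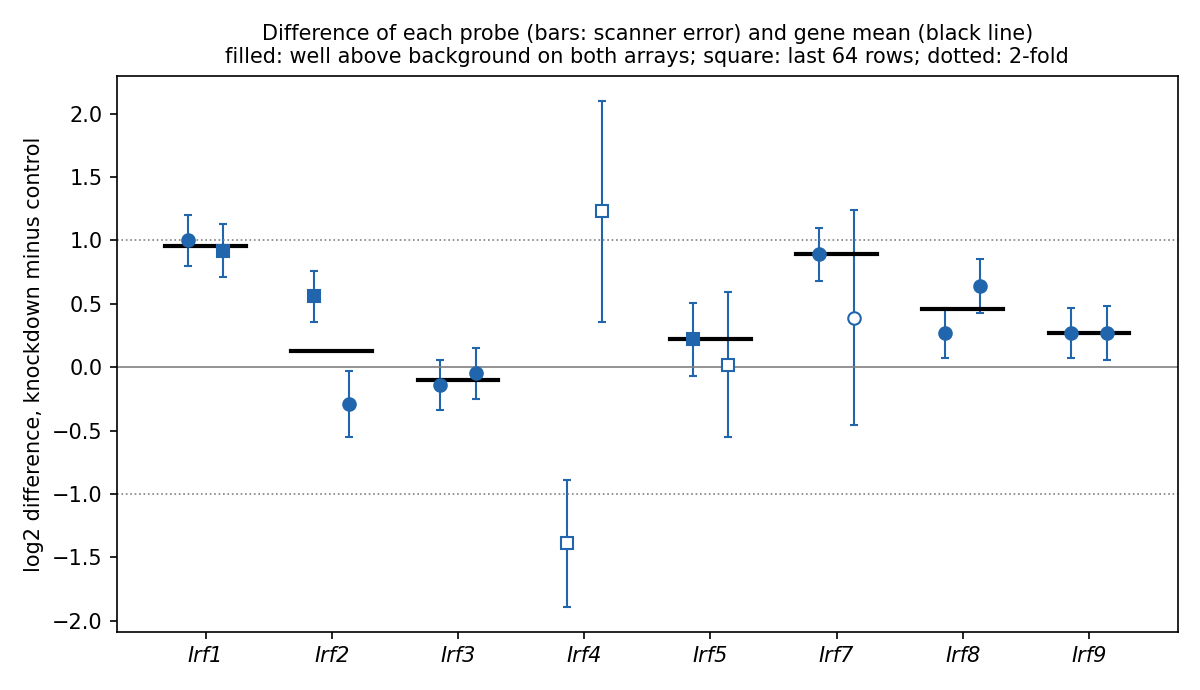
Log2 difference, knockdown minus control, for both probes of each IRF gene, with the scanner error as bars and the gene mean over probes well above background on both arrays as a black line. Irf1 (0.96) and Irf7 (0.89) lie just under the dotted 2-fold line, the Irf2 probes fall on opposite sides of 0, and Irf4 has no mean, its open symbols lying on either side of 0.

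Irf4, Irf5 and Irf8 are at home in immune cells, so markers of those cells are given beside them. Of 26 lymphoid and myeloid markers 12 were measured on both arrays, with a median of 0.10. Of these, 8 were above 0, against 51.2% of all measured genes, and 1 was at least 2-fold higher, against 3.67%. Their summed signal was 6922 on the knockdown array and 5357 on the control array. Not well above background on either array were 13, among them Spi1 (the partner factor PU.1), Aif1, Tyrobp, Cx3cr1, Adgre1, C1qa and P2ry12. The largest part of the sum was Ptprc, the leukocyte antigen CD45, with 4831 on the knockdown array against 3288 on the control array (0.55 ± 0.20). That signal came from 1 of its 7 probes, in the last 64 rows, and the other 6, including both RefSeq probes, read at most 10.0 on the knockdown array and 9.76 on the control array. With all its probes averaged Ptprc was at 0.02. Tmem119, a microglial marker, was at 1.80 ± 0.24, with 113.9 on the knockdown array against 32.7 on the control array. With normexp it was at 0.85, and 0 of these markers then reached 2-fold. Xcr1 was at 0.63 ± 0.24 (from the last 64 rows) and Cd68 at -0.48 ± 0.12. Other myeloid markers were measured on both arrays too. Csf1r averaged 561 on the knockdown array against 481.7 on the control array (0.22 ± 0.14). Itgam averaged 373.8 on the knockdown array against 345.5 on the control array (0.11 ± 0.18). Fcer1g was at 0.09 ± 0.21, and C1qb, which was dim, at -0.18 ± 0.28. The part of other cells in the Irf8 value was not tested, and in such bulk RNA more cells of a type and more RNA per cell cannot be told apart.

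The genes that neighbour the IRFs in the RefSeq annotation of assembly GRCm38 were mostly near 0. The exception beside a measured IRF was Gm12216, a long noncoding RNA gene next to Irf1, which read 102.2 on the knockdown array against 37.5 on the control array from 1 probe (1.45 ± 0.23). Beside Irf3, Bcl2l12 was at 0.13 ± 0.20 and Scaf1 at -0.04 ± 0.20. Beside Irf7, Phrf1 was at -0.10 ± 0.20. Beside Irf9, Rnf31 was at 0.04 ± 0.20 and Rec8 at -0.10 ± 0.21. Beside Irf5, Tnpo3 was at -0.14 ± 0.10. Beside Irf4, Dusp22 was at -0.71 ± 0.21 and Exoc2 at -0.36 ± 0.15. The neighbours of Irf2 and Irf8 were not measured on both arrays or had no probe.

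RefSeq promoter sequences, from 250 bases before to 50 bases after an annotated start on build GRCm38.p6, were at hand for all 8 genes, as 11 promoters. They were searched for the GAS letters TTCNNNGAA, which read the same on both strands, and for the ISRE core GAAANNGAAA on both strands. The GAS letters were found in 3 of the 11 promoters, against 8.30% of all 32851 mouse promoters of that length, and the ISRE letters in 1, against 3.44%. The 3 promoters, of Irf1, Irf2 and Irf8, are shown 5′ to 3′ with the matches in capitals, because they alone among the 11 hold either motif. A match is a description of these letters and shows no binding.
Irf1 promoter, chr11:53769764-53770063, plus strand: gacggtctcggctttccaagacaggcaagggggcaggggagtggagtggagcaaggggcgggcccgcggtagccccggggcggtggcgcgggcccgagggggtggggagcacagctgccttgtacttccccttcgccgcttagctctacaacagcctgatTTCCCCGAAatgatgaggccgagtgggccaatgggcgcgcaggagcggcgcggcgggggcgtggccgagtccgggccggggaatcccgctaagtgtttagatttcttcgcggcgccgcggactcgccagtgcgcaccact
Irf2 promoter, chr8:46739495-46739794, plus strand: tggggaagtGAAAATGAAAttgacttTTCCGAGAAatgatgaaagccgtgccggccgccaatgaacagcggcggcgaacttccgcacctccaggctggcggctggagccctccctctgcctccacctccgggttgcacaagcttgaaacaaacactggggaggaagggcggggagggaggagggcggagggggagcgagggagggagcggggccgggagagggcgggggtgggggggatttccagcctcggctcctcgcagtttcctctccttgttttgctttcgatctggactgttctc
Irf8 promoter, chr8:120736108-120736407, plus strand: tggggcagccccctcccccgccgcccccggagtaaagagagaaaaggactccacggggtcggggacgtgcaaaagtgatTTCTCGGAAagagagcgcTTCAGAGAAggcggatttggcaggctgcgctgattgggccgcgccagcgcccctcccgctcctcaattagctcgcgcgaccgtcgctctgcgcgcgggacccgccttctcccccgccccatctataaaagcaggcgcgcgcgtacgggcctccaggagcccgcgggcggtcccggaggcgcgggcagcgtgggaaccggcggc
In Irf1 the match TTCCCCGAA starts 90 bases before the start. In Irf2 the ISRE match GAAAATGAAA starts 241 bases and the GAS match TTCCGAGAA 224 bases before it, without overlap. In Irf8 the GAS matches TTCTCGGAA and TTCAGAGAA start 171 and 153 bases before it. The members with a match differed by 0.96, 0.13 and 0.46, and Irf7, at 0.89, had none of these letters in its window.

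Upstream of the IRFs stand the sensors, adaptors and kinases that activate IRF3, IRF5 and IRF7. Of 23 such genes 22 were measured, 15 above 0 and 7 below, with a median of 0.14. Of all measured genes 51.2% were above 0. At least 2-fold higher were 3, against 3.67% of all measured genes, and 0 were lower, against 2.41%. The RNA sensor Ddx58 (RIG-I) averaged 468.4 on the knockdown array against 175.3 on the control array (1.42 ± 0.15). The RNA sensor Ifih1 (MDA5) read 280.3 on the knockdown array against 119.8 on the control array (1.23 ± 0.21). Ddx58 and Ifih1 are also on the list of ISGF3 targets and are counted there again. The IRF kinase Ikbke read 85.5 on the knockdown array against 36.5 on the control array (1.23 ± 0.23), and was at 0.02 with its probes below background averaged in. The TLR3 adaptor Ticam1 was at 0.89 ± 0.20, from the last 64 rows. The related kinase Tbk1 was at 0.07 ± 0.20 and the adaptor Mavs at 0.16 ± 0.20. With normexp, Ifih1 (0.89) and Ikbke (0.61) fell short of 2-fold.

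Among 18 proteins that bind or modify IRFs, 15 were measured, with a median of 0.10. Of these, 3 were at least 2-fold higher, against 3.67% of all measured genes, and 0 lower, against 2.41%. Batf2, a partner of IRF1, read 501.2 on the knockdown array against 149.6 on the control array (1.74 ± 0.21), from a probe in the last 64 rows. Batf, a partner of IRF4 and IRF8, read 128.4 on the knockdown array against 51.5 on the control array (1.32 ± 0.22). The ubiquitin ligase Trim21 was at 1.07 ± 0.21 and Nmi, an interferon-induced partner of STATs, at 0.90 ± 0.20. The IRF2-binding corepressors Irf2bp1, Irf2bp2 and Irf2bpl were at 0.00 ± 0.20, 0.04 ± 0.16 and 0.10 ± 0.14. With normexp, Batf (0.70) and Trim21 (0.78) fell short of 2-fold.

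Interferon genes, of which some but not all are targets of IRF3 and IRF7, gave little signal. Of 16 on the array 6 were measured, all below 0, with a median of -0.51 and 0 at 2-fold. Of all measured genes 51.2% were above 0, 3.67% were at least 2-fold higher and 2.41% lower. Their summed signal was 192 on the knockdown array against 263 on the control array. Ifnb1, Ifng, Ifna4 and 6 others were not well above background on either array. Ifna5 read 17.8 on the knockdown array against 28.1 on the control array (-0.66 ± 0.33), and Ifna1 33.0 on the knockdown array against 48.4 on the control array (-0.55 ± 0.25). Ifnl3 read 54.1 on the knockdown array against 77.8 on the control array (-0.52 ± 0.23), and Ifnab averaged 22 on the knockdown array against 31.1 on the control array (-0.50 ± 0.21). The probes of Ifna5, Ifna1 and Ifnl3 lay in the last 64 rows. Interferon alpha genes are near-identical in sequence, so their single values are uncertain. With all probes averaged the median of the list was 0.10, with normexp -0.11 and without the last 64 rows -0.28. With normexp Ifna5 was at -0.09, Ifnab at -0.08, Ifna1 at -0.25 and Ifnl3 at -0.24.

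All 18 listed receptors, kinases, STATs and inhibitors of interferon signalling were measured, 10 above 0 and 8 below, with a median of 0.15. The 2-fold limit was reached by 0 genes in either direction, against 3.67% of all measured genes upward and 2.41% downward. The type I receptor chain Ifnar2 averaged 1692 on the knockdown array against 1068 on the control array (0.66 ± 0.14), whereas Ifnar1 was at -0.10 ± 0.10. The kinase Tyk2 was at 0.61 ± 0.19. The phosphatase Ptpn11 averaged 1809 on the knockdown array against 2893 on the control array (-0.68 ± 0.14). Socs1, an inhibitor that interferon gamma induces, was at -0.01 ± 0.20.

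The genes downstream of the IRFs were described by their targets. Of 36 measured targets of ISGF3, 32 were above 0, against 51.2% of all measured genes, with a median of 0.71. At least 2-fold higher were 12, against 3.67% of all measured genes, and 0 were lower, against 2.41%. Ifit1, which binds viral RNA, read 223.6 on the knockdown array against 34 on the control array (2.72 ± 0.23). Rtp4 read 827.6 on the knockdown array against 200.4 on the control array (2.04 ± 0.21) and Oas1a 111.9 on the knockdown array against 36.9 on the control array (1.60 ± 0.23). Xaf1 was at 2.49 ± 0.28 from a probe in the last 64 rows, and at 0.61 with its dim probes averaged in. Samd9l had a signal well above background with the knockdown and not with the control, and was at least 2.13-fold higher with the knockdown. Below 0 were 4 of the list: Mx1 (-0.23 ± 0.15), Trim25 (-0.14 ± 0.12), Adar (-0.06 ± 0.15) and Oasl1 (-0.01 ± 0.14). The probes of Trim25 ran from -0.65 to 0.44 and those of Adar from -0.59 to 0.47, so these means average unlike values. Oasl1 and, among the genes above 0, Stat2, Parp9 and Parp14 also had probes on both sides of 0. With normexp 7 of the list were at least 2-fold higher, against 191 of all 16354 measured genes. Ifit1 was then at 1.5, Xaf1 at 1.06 and Oas1a at 0.92, and the median of the list was 0.47.

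Targets of IRF1 and interferon gamma had a median of 0.44 over 27 measured genes, 20 above 0, against 51.2% of all measured genes. Of the 27, 3 were at least 2-fold higher, against 3.67% of all measured genes, and 0 lower, against 2.41%. The chemokine Ccl5 read 1151 on the knockdown array against 351.5 on the control array (1.71 ± 0.20). The immunoproteasome subunits Psmb8 and Psmb9 read 2258 and 1031 on the knockdown array against 888.5 and 412.3 on the control array (1.34 ± 0.20 and 1.32 ± 0.20). Psmb9 was at 0.72 with its dim probes averaged in. The chemokine Cxcl10 was at 0.98 ± 0.20, from the last 64 rows, and at 0.55 with its dim probes averaged in. Below 0 were 7 of the list, among them Vcam1 (-0.57 ± 0.15), Cdkn1a (-0.56 ± 0.15) and the chemokine Cxcl11 (-0.22 ± 0.14). The GTPase genes Iigp1 and Gbp2, likewise dim with the control, were at least 4.06-fold and at least 2.12-fold higher with the knockdown. As for Samd9l and Olig2, each figure is the largest bound among the gene's probes and leaves out the scanner error. The target lists overlap, with Psmb8 on both, and some genes such as Usp18 are on the ISGF3 and the receptor lists. Ddx58 and Ifih1 are on the ISGF3 list and on that of the sensors, adaptors and kinases, so these counts are not separate. With all probes averaged 5 of the IRF1 and interferon-gamma list were at least 2-fold higher, against 1282 of all 26878 genes.

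**Figure D3:**
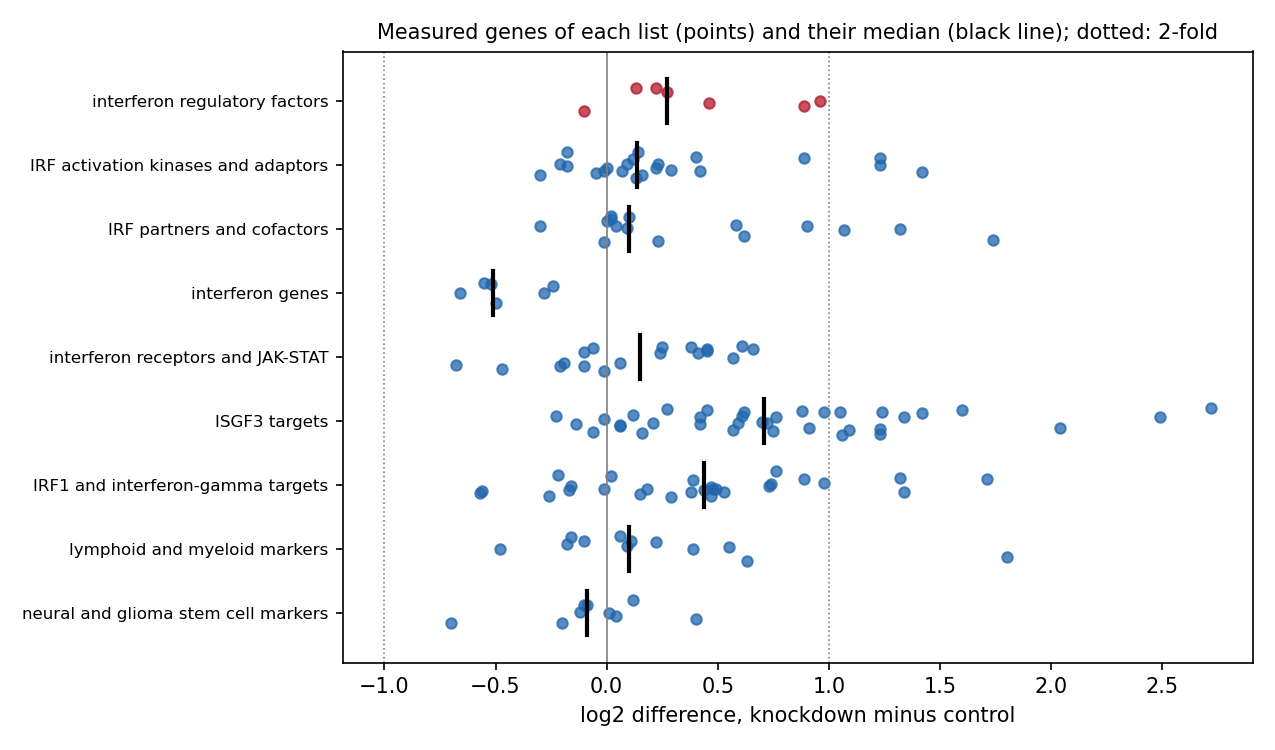
Log2 difference, knockdown minus control, of each measured gene (points) in the IRF family (top row) and in the 8 lists around it, with the median as a black line and 2-fold as dotted lines. The median was 0.27 for the IRFs, 0.71 for ISGF3 targets and 0.44 for IRF1 and interferon-gamma targets, and the measured interferon genes all lie below 0.

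Across the 10 processing alternatives Irf1 was above Irf7, and Irf7 above Irf8, wherever both were measured. These alternatives reuse the same arrays and largely the same spots, so they are not separate checks. Irf7 rests on the same probe in each of them that measured it, except without the filter on dim probes. Irf1 ranged from 0.80 to 1.0, Irf7 from 0.56 to 0.89, Irf8 from 0.27 to 0.46, Irf9 from 0.26 to 0.27 and Irf3 from -0.14 to -0.08. Irf5 ranged from 0.05 to 0.22 over the 8 alternatives that measured it. Irf2 ranged from -0.29 to 0.56, and was the only measured IRF to change sign.

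**Figure D4:**
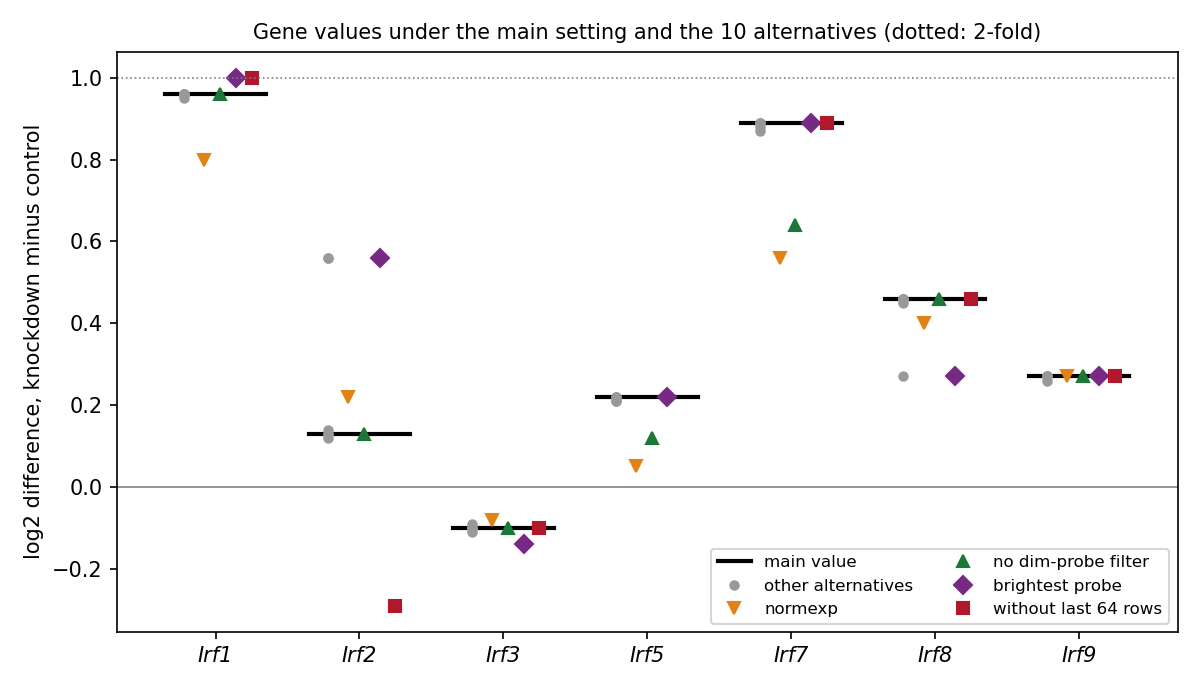
Log2 difference, knockdown minus control, of the 7 measured IRF genes in the main setting (black line) and under the 10 alternatives (symbols). Irf1 and Irf7 are lowest with normexp (0.80 and 0.56), and Irf2 lies between -0.29 without the last 64 rows and 0.56 with its brightest probe.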

How the data were processed

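Both arrays were scanned and read with Agilent Feature Extraction 12.1.0.3, per the file headers. The deposited intensity of a spot is its processed signal, corrected for background by that software, with no scaling across arrays. The deposited files further give the software's error, the raw median signals used for normexp (the files hold no mean signal), and flags (a deposited code, another unit) for spots well above background, saturated or outlying. The authors' deposited log2 table was, to within 0.001 for 100% of 56294 single-spot probes, log2 of the processed signal minus 8.94 on each array, with column medians of -3.83 and -3.83.

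Control and outlier-flagged spots were left out. A probe's level was log2 of its signal minus the array's 75th percentile, at signals of 493.7 (knockdown) and 493.3 (control). Well above background were 58.6% of probes on the knockdown array and 59.5% on the control array. Genes were given the mean of their probes that were well above background on both arrays. Where a probe was so on 1 array only, a bound was taken. Its level was set against the dim array's own reading or that array's lowest signal well above background, whichever was higher. A gene was given a bound only if no probe was measured on both. Where several of its probes gave a bound, the largest was kept. Bounds leave out the scanner error. Probes were named by RefSeq accession or symbol (GRCm38), with 10425 left unnamed. The gene rule named every probe of the IRFs, in each list the 4 measured genes with the largest differences and those with a bound of 2-fold or more, and each IRF's nearest annotated genes. Some listed genes are not reported here. Other listed genes named were chosen after their values were seen. No test was possible with single arrays, since they leave no residual degrees of freedom. The calculation was tested on simulated data. The number of arrays limits the precision. The IRF genes and the lists were chosen with earlier results of these data known. Alternatives used limma 3.58.1 for normexp, and python 3.11.15.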

Additional observations from a re-analysis of the deposited data

How the results depend on the processing

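The counts of IRFs at least 2-fold higher and lower were 0 in the main setting and under each of the 10 alternatives. The count of higher IRFs is a near miss. Irf1 was at 1.0 after rounding, just under the limit, with the brightest probe and without the last 64 rows. The IRF median ranged from 0.20 to 0.46 and the number above 0 from 4 to 6, as 5 to 8 IRFs were measured. Without the last 64 rows Irf2 turned to -0.29, where by construction its other probe alone is left. The median of the interferon genes turned to 0.10 without the filter on dim probes, which also moved the median of all genes to 0.10, from 0.01 in the main setting. The median of the neural and glioma stem cell markers, -0.09 in the main setting, turned to 0.06 with brighter probes only, to 0.04 with RefSeq probes only and to 0.01 without the last 64 rows. The causes were not tested. Of all genes, 600 were at least 2-fold higher and 394 lower in the main setting, 191 and 167 with normexp, 1282 and 1000 with dim probes kept, and 266 and 245 with brighter probes only. No paired analysis was possible because each group has 1 array. Irf4, Irf5 and the dimmer Irf7 probe lie near background, which limits what their values show.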
